A study of Mus musculus with 35 samples.

Results

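Ucp1 was followed across 35 primary cultures of mouse inguinal adipocytes, each measured on 1 Mouse Exon 1.0 ST array. Of 17958 transcript clusters on the deposited table, which cover 15224 genes with a cluster of their own, 1 cluster (6977656) carries the symbol Ucp1 alone, and it is the subject here. Adipocyte precursors were isolated from the inguinal subcutaneous fat (iWAT) of SV129 and C57BL/6 mice and grown in insulin-containing medium. ROSI cultures received 1 μM rosiglitazone and NE cultures 1 μM norepinephrine, from the first culture day to harvest at day 7. Control cultures were untreated and harvested at day 7, and a further untreated set was harvested at day 3, when the cells still divided. SV129 contributed 5 ROSI, 5 NE, 4 control and 4 day 3 cultures, and C57BL/6 contributed 4 ROSI, 5 NE, 4 control and 4 day 3 cultures. Replicates are numbered, but nothing says that they came from different mice, so the spread between arrays may be partly technical, and they give neither the age nor the sex of the mice. The general protocol note on every sample lists both drugs, and each culture was assigned by its own treatment label. Ucp1 was selected on its measured values in these arrays, so its levels and differences are given as a description with no test.

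Ucp1 encodes uncoupling protein 1, a carrier of the inner mitochondrial membrane of brown and beige adipocytes. It lets protons flow back into the matrix without making ATP, so that fuel oxidation is released as heat. Transcription of Ucp1 is known to be driven by norepinephrine, through β-adrenergic receptors, cyclic AMP (cAMP) and protein kinase A, and by PPARγ, the nuclear receptor that rosiglitazone binds. In inguinal fat, a depot that is white at rest, cells that make Ucp1 are called beige or brite.

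The bases in front of 4 genes are shown because the results below turn on these genes. They are Ucp1 itself, Steap4, whose values followed Ucp1 most closely, Pck1, the one cluster called for a strain difference in its ROSI change, and Nr4a3, a cAMP-response gene. Each sequence is the 250 bases upstream of the annotated start, from RefSeq on GRCm38.p6, and all 4 lie on the + strand. Capitals mark matches on either strand to TGACG (the core of a cAMP-response element), to AGGTCA (the core motif of nuclear receptors), to the promoter motif TATAAA or its variant spelled TATATA, which can share bases with it, and to the motif CCAAT.
Ucp1, chr8:83290098-83290347: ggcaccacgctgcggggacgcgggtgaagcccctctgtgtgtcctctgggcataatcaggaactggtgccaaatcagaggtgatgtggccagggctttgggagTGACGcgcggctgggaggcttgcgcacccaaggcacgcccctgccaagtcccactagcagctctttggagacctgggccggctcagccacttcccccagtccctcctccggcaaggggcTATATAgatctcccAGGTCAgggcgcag
Steap4, chr5:7960222-7960471: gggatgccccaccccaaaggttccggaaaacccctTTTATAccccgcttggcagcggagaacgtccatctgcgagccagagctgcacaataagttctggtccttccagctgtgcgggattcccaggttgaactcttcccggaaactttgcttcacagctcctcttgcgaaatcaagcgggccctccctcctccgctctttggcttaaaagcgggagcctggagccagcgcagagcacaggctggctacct
Pck1, chr2:173152823-173153072: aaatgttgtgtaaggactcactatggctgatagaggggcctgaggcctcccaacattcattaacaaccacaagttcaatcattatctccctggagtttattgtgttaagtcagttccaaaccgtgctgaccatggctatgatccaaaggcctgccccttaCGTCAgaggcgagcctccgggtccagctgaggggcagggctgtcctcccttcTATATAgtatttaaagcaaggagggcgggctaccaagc
Nr4a3, chr4:48045055-48045304: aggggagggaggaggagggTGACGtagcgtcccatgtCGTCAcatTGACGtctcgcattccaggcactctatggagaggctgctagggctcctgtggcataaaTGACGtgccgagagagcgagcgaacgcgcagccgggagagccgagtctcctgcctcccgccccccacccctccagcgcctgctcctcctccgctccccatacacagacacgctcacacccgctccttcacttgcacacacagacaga

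The Ucp1 window held TGACG at 147 to 143 bases before the start, TATATA at 28 to 23 bases and AGGTCA at 14 to 9 bases. Nr4a3 held TGACG or its reverse complement at 4 places, Pck1 at 1 place, and the Steap4 window had none of these letters. Over 32851 promoter windows of the same length, 17.8% held TGACG, 14% AGGTCA, 12.4% TATAAA, 5.25% TATATA and 33.8% CCAAT. A match is a description of the letters and was not set against any binding data.

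All values are log2 RMA intensities. Before the results, 2 SV129 arrays have to be named, since their whole profiles went against their labels. Each array's deviations from the mean of all arrays, over all clusters, were correlated with the mean profile of each group, an array being left out of its own group's mean. The array labelled SV129 ROSI replicate 1 correlated at -0.22 with the other SV129 ROSI arrays and at 0.73 with the SV129 NE arrays. The array labelled SV129 NE replicate 2 correlated at 0.17 with the other SV129 NE arrays and at 0.48 with the C57BL/6 day 3 arrays. The array labelled SV129 ROSI replicate 6 resembled its own group most, but at only 0.43, and so did the array labelled SV129 NE replicate 6, at 0.23, which had the highest Ucp1 of SV129. Over the whole series 24 arrays were closest to their own group and 11 to another, the rest of these mostly between control and NE arrays of one strain or between ROSI arrays of both strains. All arrays were kept under their labels, and for Ucp1 and the genes below whose values turn on the first 2 of these arrays, values without them are given as well.

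Ucp1 was highest in C57BL/6 ROSI cultures, intermediate in SV129 NE and SV129 ROSI cultures, and at one low level in the other 5 groups. In the 4 C57BL/6 ROSI cultures the Ucp1 values were 8.13, 7.95, 7.90 and 8.14, a mean of 8.03 ± 0.12 (SD, n = 4). SV129 NE cultures had 7.08, 6.33, 7.18, 7.16 and 7.42, a mean of 7.03 ± 0.41 (SD, n = 5), in which the low array is the one labelled replicate 2. SV129 ROSI cultures had 7.10, 6.45, 6.77, 6.63 and 6.95, a mean of 6.78 ± 0.26 (SD, n = 5), in which the highest array is the one labelled replicate 1. The 2 arrays named above were thus the lowest NE and the highest ROSI array of SV129. Without these arrays Ucp1 averaged 7.21 ± 0.15 (SD, n = 4) in SV129 NE cultures and 6.70 ± 0.21 (SD, n = 4) in SV129 ROSI cultures.

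The remaining groups lay close together. C57BL/6 NE cultures had Ucp1 values of 6.10, 6.02, 6.08, 6.19 and 5.97, a mean of 6.07 ± 0.08 (SD, n = 5). C57BL/6 control cultures had 6.21, 6.08, 6.16 and 6.13, a mean of 6.14 ± 0.05 (SD, n = 4). SV129 control cultures had 6.03, 5.94, 5.99 and 6.22, a mean of 6.04 ± 0.12 (SD, n = 4). The day 3 cultures averaged 6.01 ± 0.12 in SV129 (5.87 to 6.14) and 6.16 ± 0.10 in C57BL/6 (6.03 to 6.28; SD, n = 4 each). Neighbours in this order of 5 groups overlapped, as did SV129 NE and SV129 ROSI above them. The steps down after C57BL/6 ROSI and after SV129 ROSI were without overlap.

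**Figure D1:**
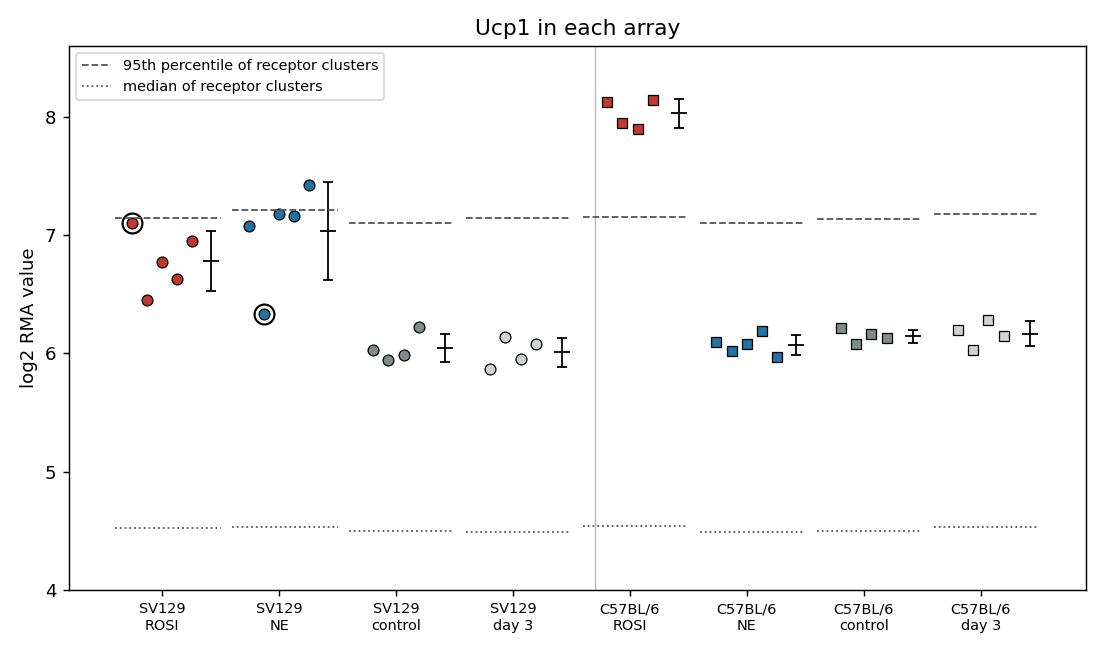
Ucp1 in each array (log2 RMA value) by strain and treatment, 1 point per array, with the group mean and SD to the right of the points. Rings mark the arrays labelled SV129 ROSI replicate 1 and SV129 NE replicate 2, and the dashed and dotted lines are the group averages of the 95th percentile and the median of the odorant and vomeronasal receptor clusters on the same arrays. The 4 C57BL/6 ROSI arrays, at 7.90 to 8.14, lie above all others and above the dashed line.

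The low level of Ucp1 lay in the upper part of the range that the array reads for genes that adipocytes are not known to use. The 878 clusters of odorant and vomeronasal receptor genes, which belong to sensory neurons, had medians of 4.45 to 4.62 and 95th percentiles of 6.94 to 7.30 over the 35 arrays. Ucp1 exceeded that 95th percentile in 4 of 4 C57BL/6 ROSI arrays, in 1 of 5 SV129 NE arrays and in no array of the other 6 groups. So the control, day 3, C57BL/6 NE and SV129 ROSI levels of Ucp1 lay within the range of the receptor clusters. SV129 NE passed their 95th percentile in only 1 array. The percentile is taken over other clusters, so it does not give what the Ucp1 probes read without transcript. Ucp1 exceeded 89.3 to 94.2% of the receptor clusters in SV129 ROSI arrays and 84.6 to 97.7% in SV129 NE arrays, against 81.8 to 84.4% in SV129 control arrays. Differences of Ucp1 below are therefore differences of log2 signal, and how many-fold its RNA differed was not measured.

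With ROSI, Ucp1 was higher than in control cultures of both strains. The difference was 1.89 ± 0.07 in C57BL/6 (SE, 8.03 in ROSI against 6.14 in control cultures) and 0.74 ± 0.13 in SV129 (SE, 6.78 in ROSI against 6.04 in control cultures). Every ROSI array lay above every control array of its strain. Such a separation upwards was common: it held for 20.7% of all clusters in C57BL/6 and 7.72% in SV129. Without the array labelled SV129 ROSI replicate 1 the SV129 difference was 0.66 ± 0.12 (SE), with no overlap, as for 15.6% of clusters. In bulk cultures a larger share of cells that make Ucp1 and more Ucp1 RNA per cell cannot be told apart.

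With NE, Ucp1 was higher than in control cultures of SV129, and in C57BL/6 the NE and control ranges overlapped. In SV129, NE cultures averaged 7.03 and control cultures 6.04, a difference of 0.99 ± 0.19 (SE), and all 5 NE arrays lay above all 4 control arrays, which held for 2.08% of all clusters. Without the array labelled SV129 NE replicate 2 the difference was 1.16 ± 0.10 (SE), with no overlap, as for 6.07% of clusters. In C57BL/6, NE cultures averaged 6.07 and control cultures 6.14, a difference of -0.07 ± 0.05 (SE). The change with NE in SV129 minus that in C57BL/6 was 1.06 in log2 signal, and the change with ROSI in SV129 minus that in C57BL/6 was -1.15. Both rest on control levels within the range of the receptor clusters and describe a gene picked for its pattern.

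The drugs were then set side by side at the same dose and day. In C57BL/6, Ucp1 was 1.96 ± 0.07 higher in ROSI than in NE cultures (SE, 8.03 in ROSI and 6.07 in NE cultures) without overlap, as for 19% of all clusters. In SV129, ROSI minus NE was -0.25 ± 0.22 (SE), with overlapping ranges, so that with all arrays the drugs had no clear order there. Without the arrays labelled SV129 ROSI replicate 1 and SV129 NE replicate 2 it was -0.51 ± 0.13 (SE), and all 4 remaining ROSI arrays lay below all 4 remaining NE arrays, which held for 7.07% of clusters. ROSI and NE share the control cultures within a strain.

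Between strains, ROSI cultures had 1.25 ± 0.13 less Ucp1 signal in SV129 than in C57BL/6 (SE), without overlap downwards, as for 2.32% of clusters, and 1.33 less without the array labelled SV129 ROSI replicate 1 (2.68% of clusters). NE cultures had 0.96 ± 0.19 more in SV129 than in C57BL/6 (SE), without overlap upwards, as for 2.09% of clusters, and 1.14 more without the array labelled SV129 NE replicate 2 (6.19% of clusters). Untreated cultures of the strains overlapped: SV129 minus C57BL/6 was -0.10 ± 0.07 (SE) in control and -0.15 ± 0.08 (SE) in day 3 cultures. Between untreated cultures of day 7 and day 3 the Ucp1 ranges overlapped, with control minus day 3 at 0.03 ± 0.09 in SV129 and -0.02 ± 0.06 in C57BL/6 (SE), although limma called 9.69% of clusters higher and 5.60% lower at day 7 than at day 3.

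The genes around Ucp1 in its pathway were then compared in limma models across all 17958 clusters with strain as a covariate, a call being an adjusted p under 0.01. ROSI cultures had 2923 clusters (16.3%) higher and 2081 (11.6%) lower than control cultures. Of 104 measured genes on 7 lists around Ucp1, 54 were higher and 8 lower, with a median change of 0.23 against 0.01 over all clusters. The split depended on scaling: quantile normalization gave 2543 clusters higher and 3023 lower, and median centring 2527 higher and 2817 lower, with 50 list genes higher and 14 or 12 lower. NE cultures had 0 clusters (0%) higher or lower than control cultures, with 2053 clusters at an unadjusted p under 0.05, and hence 0 of the 104. ROSI cultures had 15.8% of clusters higher and 12% lower than NE cultures, and 52 of the 104 genes were higher and 13 lower. As to whether the ROSI change differed between strains, SV129 minus C57BL/6 was called positive for 0 clusters (0%) and negative for 1 cluster (0.00557%). Of all clusters, 1611 had an unadjusted p under 0.05. The same question for NE was called for 0 clusters (0%) in either direction, with 1747 at an unadjusted p under 0.05.

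Among known activators of Ucp1, 14 of 24 measured genes were higher with ROSI and 1 was lower, beside 16.3% and 11.6% of all clusters. Ppargc1a, the coactivator PGC-1α that links cAMP signalling to mitochondrial biogenesis and Ucp1, rose by 1.85 ± 0.26 (SE, limma adjusted p = 2.5e-05), and by 2.05 without the array labelled SV129 ROSI replicate 1. Its values were 9.55, 11.57, 11.64, 11.90 and 10.50 in SV129 ROSI cultures, against 9.44, 9.50, 9.59 and 9.78 in SV129 control cultures. In C57BL/6 they were 11.85, 11.94, 12.02 and 11.98 in ROSI cultures, against 9.51, 9.85, 9.69 and 9.61 in control cultures. So Ppargc1a was at control level in the array labelled SV129 ROSI replicate 1, the SV129 ROSI array with the most Ucp1, and 3 of the other SV129 ROSI arrays nearly reached the C57BL/6 level of Ppargc1a while their Ucp1 stayed at 6.45 to 6.77. In NE cultures Ppargc1a was 9.62, 9.35, 9.61, 9.64 and 9.80 in SV129, where Ucp1 was raised, and 9.73, 9.96, 9.59, 9.78 and 9.90 in C57BL/6.

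Several other activators rose with ROSI. Ppara, the PPAR of fatty acid oxidation, rose by 2.46 ± 0.31 with ROSI (SE, limma adjusted p = 8.7e-06), with changes of 1.91 in SV129 and 3.07 in C57BL/6. Rxrg, a partner receptor of the PPARs, rose by 1.70, Ppargc1b, the relative of PGC-1α, by 1.15, Cebpa, an adipogenic factor, by 0.95, Thrb, a thyroid hormone receptor, by 0.88 and Esrra, an orphan receptor for mitochondrial genes, by 0.80. The rise was small for Ebf2 (0.41) and Prdm16 (0.31), which set beige identity, and for Pparg itself (0.25). Prdm16 was dim, with ROSI and control group means of 7.35 to 7.74. Thra, the other thyroid hormone receptor, fell by 0.33, and 9 activators were not called, among them Rxra (-0.04), Cebpb (-0.02) and Creb1 (0.10). With NE the changes of Ppara were 0.17 in SV129 and 0.37 in C57BL/6, and those of Prdm16 were -0.07 in SV129 and 0.05 in C57BL/6, none of them called.

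Of 8 measured genes known to restrain Ucp1, 5 were higher with ROSI and 0 lower, beside 16.3% and 11.6% of all clusters. The 5 were Nr1h3 (the liver X receptor LXRα) at 0.96, Rb1 (the retinoblastoma protein) at 0.78, Zfp423 (a factor that keeps fat cells white) at 0.68, Nrip1 (the corepressor RIP140) at 0.43 and Hoxc10 at 0.32. Without the array labelled SV129 ROSI replicate 1, Rbl1, a relative of Rb1, was called lower (-0.25, limma adjusted p = 0.0054). Among the 5 measured relatives of Ucp1 in the mitochondrial carrier family, Ucp3, the uncoupling protein of muscle and brown fat, rose by 0.71 ± 0.09 with ROSI (SE, limma adjusted p = 9.6e-06), with means of 7.08 in SV129 ROSI against 6.52 in SV129 control cultures and 7.48 in C57BL/6 ROSI against 6.59 in C57BL/6 control cultures. Slc25a4, an ATP/ADP carrier, rose by 0.20, and Slc25a27, Slc25a30 and Slc25a14 fell by 0.36, 0.22 and 0.16. Unlike Ucp1, Ucp3 changed by 0.18 with NE in SV129 and 0.04 in C57BL/6, which was not called. Ucp2 and the β-adrenergic receptors were not analysed here, because no cluster carries their symbol alone.

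**Figure D2:**
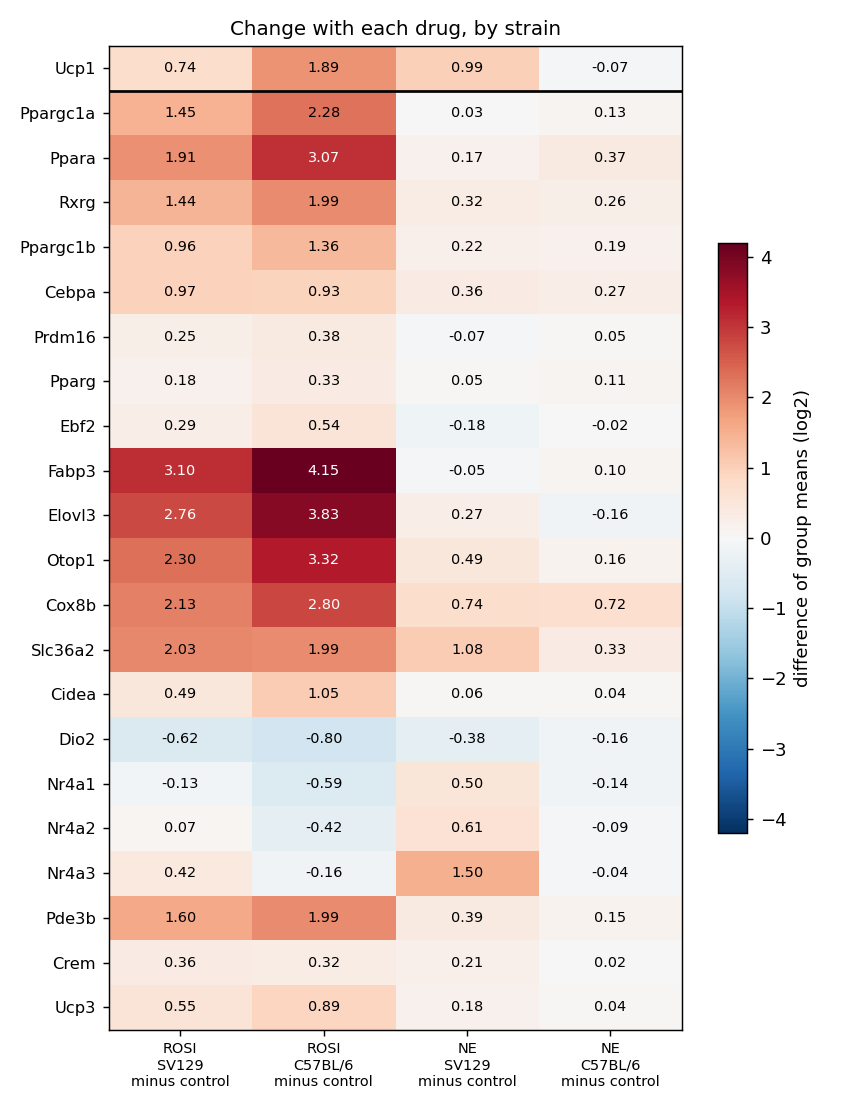
Difference of group means from control (log2), written in each cell and coloured, for ROSI and NE in each strain, with Ucp1 on top and pathway genes below. Ucp1 has its highest value under ROSI in C57BL/6 (1.89) and a value of 0.99 under NE in SV129, where Ppargc1a (0.03), Fabp3 (-0.05) and Cidea (0.06) are near 0 and Slc36a2 (1.08), Cox8b (0.74) and Otop1 (0.49) are not, none of them called with NE.

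Brown and beige marker genes gave 14 higher and 2 lower of 28 with ROSI, beside 16.3% and 11.6% of all clusters. The largest changes were in Fabp3, a fatty acid carrier of oxidative tissues (3.60 ± 0.44), Elovl3, a fatty acid elongase of brown fat (3.27 ± 0.48), Otop1, a proton channel (2.78 ± 0.29), Cox8b, a subunit of cytochrome oxidase (2.45 ± 0.25), and Slc36a2, an amino acid transporter of brown fat (2.01 ± 0.20; SE, limma adjusted p from 1.5e-06 to 3.8e-05). Elovl3 was 6.16, 9.06, 10.25, 10.75 and 7.35 in SV129 ROSI cultures, against 5.87 to 6.07 in SV129 control cultures, and 9.78 to 10.28 in C57BL/6 ROSI cultures, against 6.08 to 6.26 in C57BL/6 control cultures. Here the arrays labelled SV129 ROSI replicates 1 and 6, with the highest Ucp1 of their group, were the lowest. Cidea, a lipid droplet protein often read beside Ucp1, rose by 0.75 ± 0.14 (SE, limma adjusted p = 0.00034), on a signal of 4.76 to 6.11 over the ROSI and control arrays. Dio2, the deiodinase that makes active thyroid hormone in brown fat, fell by 0.71 ± 0.10 (limma adjusted p = 4.1e-05), and Lhx8 by 0.26. Without the array labelled SV129 ROSI replicate 1, Fabp3 and Elovl3 rose by 4.01 and 3.61, and Hspb7 was also called lower (-0.40, limma adjusted p = 0.00059). With NE none of the 28 was called, with changes in SV129 and C57BL/6 of 1.08 and 0.33 for Slc36a2 and 0.74 and 0.72 for Cox8b. Elovl3 was 6.04 to 6.57 in SV129 NE cultures and 5.57 to 6.32 in C57BL/6 NE cultures.

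The arm that carries the norepinephrine signal gave a different picture. With ROSI, 6 of 17 measured genes were higher and 0 lower, beside 16.3% and 11.6% of all clusters. Those higher were Pde3b, the phosphodiesterase through which insulin lowers cAMP (1.78 ± 0.18), Prkaca, a catalytic subunit of protein kinase A (0.67), its regulatory subunit Prkar2b (0.59), the adenylyl cyclase Adcy6 (0.56), Crem, a cAMP-response factor (0.34), and the p38 kinase Mapk14 (0.26). The early cAMP-response genes Nr4a1, Nr4a2 and Nr4a3, orphan nuclear receptors, were not among them. Without the array labelled SV129 ROSI replicate 1, Nr4a1 was called lower with ROSI (-0.46 ± 0.07, SE, limma adjusted p = 6.6e-05), against -0.34 ± 0.14 with all arrays (limma adjusted p = 0.057). Nr4a3 was 9.17, 7.13, 8.88, 9.24 and 9.32 in SV129 NE cultures, against 7.10, 7.13, 7.41 and 7.36 in SV129 control cultures. In C57BL/6 it was 7.19, 7.01, 7.21, 6.98 and 7.02 in NE cultures, against 7.06, 7.03, 7.06 and 7.32 in control cultures. In SV129 ROSI cultures it was 9.27, 7.50, 7.17, 6.98 and 7.44, the high value being that of the array labelled replicate 1.

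Nr4a3 and Ucp1 were highest in the same 5 SV129 arrays: the 4 NE arrays other than the one labelled replicate 2, and the array labelled SV129 ROSI replicate 1, had Nr4a3 from 8.88 to 9.32 and Ucp1 from 7.08 to 7.42. The array labelled SV129 NE replicate 2 had Nr4a3 at the control level (7.13) and Ucp1 at 6.33. Nr4a1 behaved likewise, at 9.40, 8.71, 9.51, 9.65 and 9.67 in SV129 NE cultures, against 8.82 to 8.96 in SV129 control cultures, and at 8.70 to 9.06 in C57BL/6 NE cultures, against 8.94 to 9.09 in C57BL/6 control cultures. With all arrays the NE change of Nr4a3 in SV129 minus that in C57BL/6 was 1.54 ± 0.43 (SE, limma adjusted p = 0.37), which was not called. Without the array labelled SV129 NE replicate 2 it was 1.94 ± 0.14 (limma adjusted p = 1.3e-06), and that of Nr4a1 was 0.81 ± 0.10 (limma adjusted p = 0.0018). That setting was chosen after the values were seen. Comparing NE between strains, it called 7 clusters (0.0390%) with a positive SV129 minus C57BL/6 difference and 3 (0.0167%) with a negative one. Ucp1 was 1 of the 7 clusters, which is no test of it, since it was picked on these values. Between NE and control cultures the setting called 50 clusters (0.278%) higher and 13 (0.0724%) lower with NE. The list genes among these were Acadm, Acadvl, Mgll and Letmd1, with changes of 0.57, 0.43, 0.52 and 0.32, which serve fatty acid oxidation, lipolysis and the mitochondria of brown fat. In the same setting the adipocyte gene Dgat2 rose by 0.40, and of 11 macrophage markers 1, Itgam, fell by 0.41 and 0 rose. Genes on no list that myeloid cells express went both ways. Among those called, Cybb, Clec7a and Itgb2 fell by 0.60, 0.40 and 0.38, and Ccl9, Acp5 and Ltc4s rose by 0.80, 0.59 and 0.52. Their part in the NE calls was not tested.

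**Figure D3:**
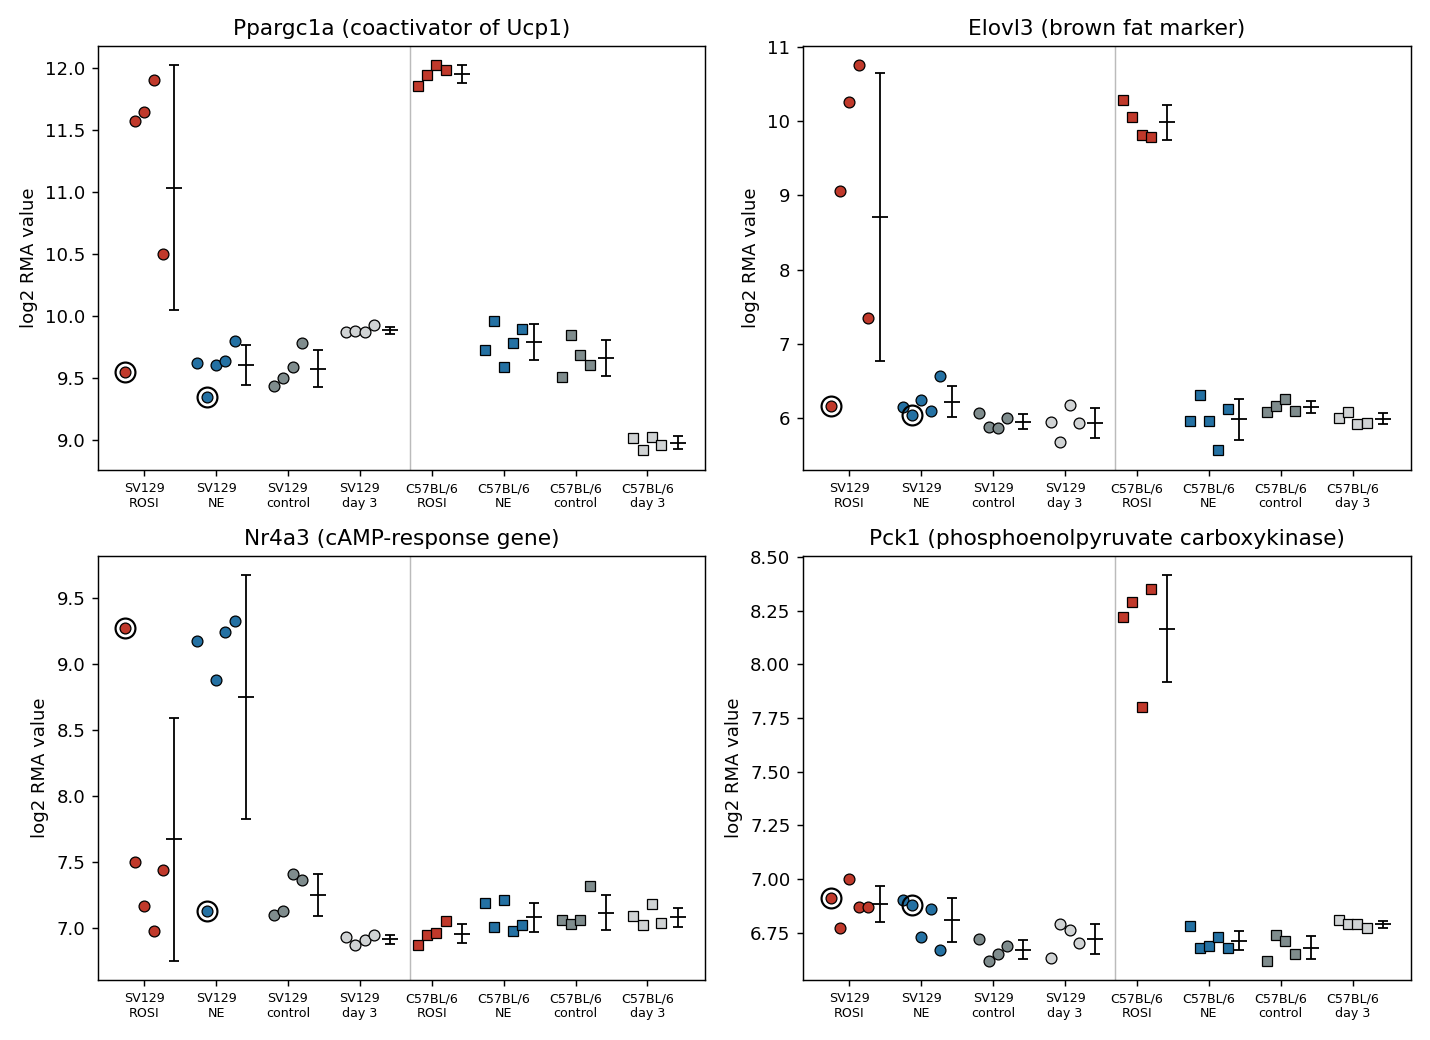
Values per array (log2 RMA) of Ppargc1a, Elovl3, Nr4a3 and Pck1 in the same layout as for Ucp1, with group mean and SD at the right of the points and rings on the arrays labelled SV129 ROSI replicate 1 and SV129 NE replicate 2. The ringed ROSI array lies with control arrays for Ppargc1a (9.55) and Elovl3 (6.16) and with the other SV129 NE arrays for Nr4a3 (9.27), and Pck1 is highest in the C57BL/6 ROSI arrays (7.80 to 8.35).

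In the model of the ROSI and control arrays, Pck1 was the one cluster called for a ROSI change that differed between strains. It encodes the cytosolic phosphoenolpyruvate carboxykinase, which fat cells use to make glycerol, and is a textbook PPARγ target. With all 35 arrays in 1 model 37 clusters were called, and with the replicate number as a block Pck1 was not called. Pck1 was 6.91, 6.77, 7.00, 6.87 and 6.87 in SV129 ROSI cultures, against 6.72, 6.62, 6.65 and 6.69 in SV129 control cultures. It was 8.22, 8.29, 7.80 and 8.35 in C57BL/6 ROSI cultures, against 6.62, 6.74, 6.71 and 6.65 in C57BL/6 control cultures. The change in SV129 minus that in C57BL/6 was -1.27 ± 0.12 (SE, limma adjusted p = 0.00033), the same direction as for Ucp1. Unlike Ucp1, Pck1 overlapped between NE and control cultures in SV129, at 6.67 to 6.90 in NE and 6.62 to 6.72 in control cultures. Of the 104 list genes, 0 were called for a strain difference in the ROSI change, Ppargc1a, Ppara, Fabp3 and Elovl3 included. Their ROSI changes in SV129 were 1.45, 1.91, 3.10 and 2.76, and in C57BL/6 2.28, 3.07, 4.15 and 3.83. The gaps between strains, -0.82, -1.16, -1.05 and -1.06, were -0.45, -0.72, -0.29 and -0.42 without the array labelled SV129 ROSI replicate 1.

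On the list of lipolysis and fatty acid oxidation, 12 of 12 measured genes were higher with ROSI, beside 16.3% of all clusters. The 12 include G0s2, which restrains lipolysis. Acadvl and Acadm, the first enzymes of fatty acid β-oxidation for very long and medium chains, rose by 2.04 ± 0.22 and 1.68 ± 0.14, and Pnpla2, the lipase that starts triglyceride breakdown, rose by 1.29 ± 0.10 (SE, limma adjusted p from 4.4e-07 to 2.8e-06). Their NE changes were 0.41, 0.67 and 0.54 in SV129 and 0.34, 0.34 and 0.28 in C57BL/6, not called with all arrays. Other heat-making cycles gave 1 higher and 2 lower of 10 with ROSI, not far from the 16.3% and 11.6% of all clusters. Gamt, of creatine synthesis, rose by 0.60, a call lost without the array labelled SV129 ROSI replicate 1 (limma adjusted p = 0.012), and Slc6a8, the creatine transporter, and Atp2a2, the calcium pump SERCA2, fell by 0.38 and 0.15.

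The adipocyte label was borne out by its markers, and their level moved with the groups. Of 10 measured adipocyte genes, 9 were higher with ROSI and 0 lower, beside 16.3% and 11.6% of all clusters. Cidec rose by 3.37 and Adipoq (adiponectin) by 1.17, whereas Lep (leptin) was dim, with group means of 5.09 to 5.40. The mean of the 10 was 10.99 to 11.84 in SV129 ROSI, 10.54 to 11.22 in SV129 NE and 9.95 to 10.55 in SV129 control cultures, and 11.85 to 11.90 in C57BL/6 ROSI, 10.71 to 10.98 in C57BL/6 NE and 10.51 to 10.93 in C57BL/6 control cultures. The ROSI change of that mean was 1.30 in SV129 and 1.17 in C57BL/6, whereas that of Ucp1 was 0.74 in SV129 and 1.89 in C57BL/6. The NE change of that mean was 0.72 in SV129 and 0.17 in C57BL/6, beside 0.99 in SV129 and -0.07 in C57BL/6 for Ucp1. Untreated SV129 cultures had an adipocyte mean of 10.23 at day 7 and 10.90 at day 3. Ucp1 was 6.04 and 6.01 there, below the receptor 95th percentile in every array, where a difference may not show. The part of adipocyte content in the Ucp1 differences was not tested.

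Of all clusters, 16.3% were called higher and 11.6% lower with ROSI. Beside that share, preadipocyte and mural markers were called often, and macrophage, endothelial, skeletal muscle and epithelial markers were not. No marker of these cells was called with NE in the fit of all arrays. Preadipocyte markers gave 0 higher and 5 lower of 9 with ROSI, with means of 10.00 to 10.99 in SV129 ROSI and 10.72 to 11.11 in SV129 control cultures, and 10.18 to 10.28 in C57BL/6 ROSI and 10.98 to 11.03 in C57BL/6 control cultures. Of 8 mural and smooth muscle markers, 3 were higher with ROSI (Cspg4 by 0.83, Des by 0.55 and Notch3 by 0.39) and 4 lower (Tagln by 0.72, Acta2 by 0.49, Cnn1 by 0.31 and Myh11 by 0.16), and their mean was 8.18 to 8.49 in ROSI and 8.24 to 8.40 in control arrays of both strains. Of 8 endothelial markers 0 were higher and 1, Tek, was lower, by 0.93. Macrophage markers gave 0 higher and 1 lower of 11 with ROSI, Itgam falling by 0.44, and 8 higher of 11 at day 7 against day 3, while Ucp1 stayed level over that time. No skeletal muscle marker of 8 and no epithelial marker of 7 was called with either drug in the fit of all arrays, and muscle means were 7.11 to 7.34 in every array of the ROSI, NE and control groups. Their part in the Ucp1 values was not tested.

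The pattern of Ucp1 over the 35 arrays was shared most by Steap4, a metalloreductase of adipocytes (Pearson r = 0.92 over the 35 arrays), and Abhd1, a hydrolase (0.92). They were followed by Tspan15, a tetraspanin (0.89), Ank, a pyrophosphate transporter (0.88), Atp10d, a phospholipid flippase (0.88), Mogat1, a monoacylglycerol acyltransferase (0.88), Lrrn4 (0.87), Tomm7, of the mitochondrial import complex (0.87), Slc25a42, a mitochondrial coenzyme A carrier (0.86), and Zbtb7c (0.86). The arrays share strains and drugs, so r mainly carries the group means. Of 15620 clusters with 1 symbol, 52 had r above 0.8. The lowest were Gstt3, Megf10 and Ddr2 (-0.85 each), and Fyn and Rplp0 (-0.84 each). The choice of 10 depended on the measure. With Spearman's correlation, or over the 8 group means, 2 of them were again among the 10, and within groups, or without the 9 ROSI arrays, 1 was. Leaving out the 2 SV129 arrays named above kept 9.

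Steap4 was 12.47, 12.31, 12.34 and 12.43 in C57BL/6 ROSI cultures, against 11.43 to 11.69 in C57BL/6 control cultures. It was 12.14, 11.75, 11.95, 11.92 and 12.23 in SV129 ROSI cultures and 12.07, 11.70, 12.13, 12.09 and 12.18 in SV129 NE cultures, against 11.60 to 11.78 in SV129 control cultures. Like Ucp1, Steap4 was thus lowest of its NE group in the array labelled replicate 2 and did not move with NE in C57BL/6, where it was 11.54 to 11.72. Its deviations from the group means also followed those of Ucp1 (r = 0.78), the 5th highest of all. Abhd1 was 11.04 to 11.40 in C57BL/6 ROSI, 9.63 to 10.37 in SV129 ROSI and 9.33 to 10.05 in SV129 NE cultures, against 8.93 to 9.48 in C57BL/6 control and 9.12 to 9.35 in SV129 control cultures, and within groups its r with Ucp1 was 0.42. Each of the 10 was called higher with ROSI than in control cultures, at 0.38 to 1.32. The 10 were picked for likeness to Ucp1 on these same arrays, so their ROSI rise was largely built into the choice. None was called with NE, for which Steap4 changed by 0.22 ± 0.06 (SE, limma adjusted p = 0.14) and Abhd1 by 0.30 ± 0.10 (SE, limma adjusted p = 0.22).

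**Figure D4:**
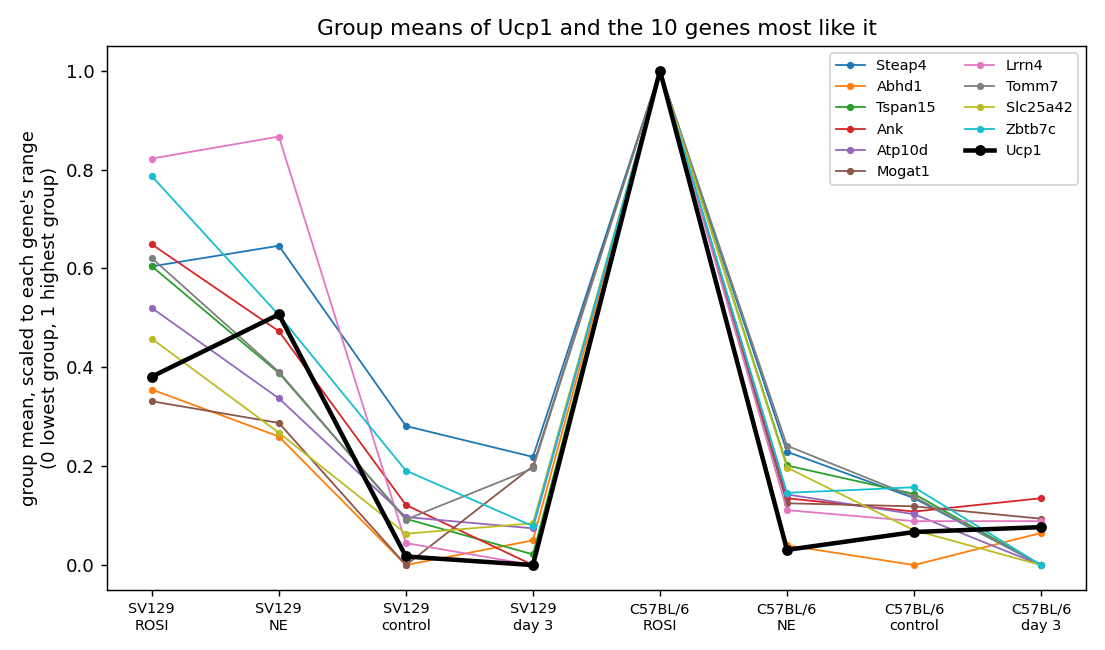
Group means of Ucp1 (black) and of the 10 genes with the highest Pearson r with it over the 35 arrays, each scaled so that its lowest group is 0 and its highest group is 1. All 11 peak in C57BL/6 ROSI cultures, and SV129 ROSI and SV129 NE cultures come next. The 10 were chosen for likeness to Ucp1 on these same arrays.

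On chromosome 8, the 3 annotated genes with a cluster on either side of Ucp1 did not share its pattern. Elmod2, the nearest after it, rose with ROSI by 0.67 ± 0.09 (SE, limma adjusted p = 1.4e-05), at 10.14 in SV129 ROSI against 9.62 in SV129 control cultures and 10.37 in C57BL/6 ROSI against 9.52 in C57BL/6 control cultures. With NE it was 9.64 in SV129 and 9.68 in C57BL/6 cultures. Tbc1d9, Rnf150 and Zfp330 before Ucp1 and Mgat4d and Clgn after it were called with neither drug against control, and Mgat4d was dimmest, with no group mean above 3.72.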

How the data were processed

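The authors deposited log2 intensities per transcript cluster, made, per the submitters' processing notes, with Affymetrix Power Tools and RMA, which corrects background, normalizes between arrays and summarizes probes. Neither versions nor a genome build were given in the sources used here. The methods state that some ROSI-study samples were excluded as outliers. Values were used as deposited, and genes were named from the platform annotation (15621 clusters with 1 symbol, 1370 with several, 967 with none). A gene with several clusters was represented by that of highest mean. On the arrays of the groups compared, limma 3.58.1 (R 4.3.3 with the data.table package, version 1.17.8) was run with strain as a covariate and p adjusted by Benjamini-Hochberg over the 17958 clusters at a threshold of 0.01, after being tested on simulated data. Figures were drawn with Python 3.11.15 and matplotlib 3.10.9. Array number limits the precision: no sequencing depth exists. No 2 arrays were identical (0 pairs, highest correlation 0.9983).

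Ucp1, the gene lists and the tests were chosen with earlier results of these data known. Named were Ucp1 and its relatives, of each list the up to 5 largest called changes, calls against the majority and key regulators, the 10 most and 5 least alike clusters, and the 3 genes on either side. Pck1, the Nr4a genes and the comparison of NE between strains were taken up after their values were seen. Alternatives changed the scaling (quantile or median), the threshold, the filter on dim clusters or the model (no strain term, all arrays together, an intensity trend, array weights, a block by replicate number), or dropped 1 array at a time.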

Additional observations from a re-analysis of the deposited data

Results flagged for a closer look

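Among 12 genes in the 8 groups (96 groups of arrays), 9 values, from 5 arrays, lay far from the rest of their group. The rule flags about 1 in 20 groups by chance. That rate cannot judge the count, because several of the 12 genes were picked on these data and all share the same arrays. Of the 9 values, 5 came from the 2 arrays whose profiles went against their labels. In the array labelled SV129 ROSI replicate 1, Fabp3 was 8.58 (11.70 to 12.79 in the others) and Nr4a3 was 9.27 (6.98 to 7.50 in the others). In the array labelled SV129 NE replicate 2, Nr4a3 was 7.13 (8.88 to 9.32), Nr4a1 was 8.71 (9.40 to 9.67) and Steap4 was 11.70 (12.07 to 12.18). Ucp1 itself gave no such array in any group. The other 4 had smaller gaps. SV129 day 3 replicate 6 had Ppargc1a at 9.93 (9.87 to 9.88) and Ppara at 8.22 (8.09 to 8.11). SV129 control replicate 4 had Cidea at 4.76 (5.04 to 5.08), and C57BL/6 control replicate 6 had Nr4a3 at 7.32 (7.03 to 7.06).

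The change of Pck1 with ROSI differed between strains by a test of the difference itself, at -1.27 ± 0.12 (SE) for SV129 minus C57BL/6 in limma, with all 5 SV129 ROSI arrays below all 4 C57BL/6 ROSI arrays. Kcne3 came closest after it among genes other than Ucp1, at -1.09 ± 0.17 (SE, limma adjusted p = 0.047), which was not called.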

How the results depend on the processing

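All 12 Ucp1 differences moved by less than the pooled SD of their 2 groups under every alternative run. That rule is lenient where the 2 SV129 arrays named above widen the SD. SV129 ROSI minus NE ran from -0.59 to -0.16, around -0.25 with all arrays. The 2 differences between control and day 3 cultures, which lay near 0, crossed 0 under some, and the other 10 kept their sign. Leaving out each array in turn gave, for ROSI minus control, 0.66 to 0.82 in SV129 and 1.85 to 1.93 in C57BL/6, and for NE minus control, 0.89 to 1.16 in SV129 and -0.1 to -0.05 in C57BL/6. For control minus day 3 it gave -0.03 to 0.08 in SV129 and -0.06 to 0.02 in C57BL/6, and for ROSI minus NE, -0.43 to -0.16 in SV129 and 1.92 to 2 in C57BL/6. SV129 minus C57BL/6 ranged from -1.33 to -1.17 with ROSI, 0.87 to 1.14 with NE, -0.16 to -0.06 in control and -0.2 to -0.11 in day 3 cultures. The strain differences cannot be estimated with the replicate block.

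Counts of clusters moved more. A minimum change of 1.5-fold left 1300 with ROSI (38 list genes), 318 at day 7 (3 list genes) and 1082 for ROSI against NE (33 list genes). Same-numbered arrays showed little shared deviation (28 pairs, correlations -0.31 to 0.3, 4 above 0.1). With 3 or 4 shared numbers per pair of groups, this cannot decide whether the numbers pair arrays. With the number as a replicate block the counts were 2863 with ROSI, 1415 at day 7 (10 list genes), 0 for ROSI against NE (0 list genes), 4 for ROSI by strain and 3 for NE by strain (1 list gene), and Pck1 by strain was not called (limma adjusted p = 0.03). For NE, quantile normalization and 1 model of all arrays each called 1 cluster, and an adjusted p under 0.05 called 12. An adjusted p under 0.05 called 4554 at day 7. For ROSI by strain the count was 2 with quantile normalization, with a filter on the dimmest clusters, with an intensity trend and without 3 SV129 arrays (ROSI replicates 1 and 6, NE replicate 2). It was 3 at an adjusted p under 0.05, 14 with array weights and 37 with all arrays in 1 model. Ucp1 was among the 3, which is no test of it, since it was picked on these values. Array weights gave 23 for NE by strain (1 list gene). The share of higher calls fell with rescaling: with ROSI 2543 higher and 3023 lower after quantile normalization (main 2923 and 2081), and at day 7 1290 and 1479 after median centring (main 1740 and 1005).

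Leaving out 1 array gave 4427 to 5667 clusters with ROSI (58 to 65 list genes), 0 to 63 with NE (0 to 4), 2230 to 2865 at day 7 (18 to 23), 4375 to 5760 for ROSI against NE (58 to 69), 1 to 27 for ROSI by strain (0 to 0) and 0 to 10 for NE by strain (0 to 2). The 63 and 10 came without SV129 NE replicate 2. The 27 came without SV129 ROSI replicate 2, and the count was 2 without SV129 ROSI replicate 1 or SV129 control replicate 1. Without C57BL/6 NE replicate 6, NE by strain had 1. The cause of these shifts was not tested. Signal over background also limits Ucp1, since only 5 of the 35 arrays lay above the 95th percentile of the receptor clusters.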
